A study of Mus musculus with 18 samples.

Results

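Common myeloid progenitors (CMPs) of lupus-prone mice were compared between animals with lupus (F1-L) and younger prediseased animals (F1-P). The comparison used all columns of the CMP expression table, which are 6 of the 18 samples of the series, 3 from F1-L and 3 from F1-P. Both groups were female NZBW/F1 mice, the first-generation offspring of NZB and NZW parents, which develop lupus spontaneously. F1-P mice were 12 weeks old. F1-L mice were 28 to 36 weeks old and had proteinuria, by which the study defined disease. No treatment was given. The series holds no CMP samples of a strain without lupus, so in this comparison age and disease cannot be told apart. Each column was taken as 1 biological sample. Whether a sample pooled several animals is not clear from the study's text, so the p-values measure the spread between these samples.

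CMPs are bone marrow cells that give rise both to megakaryocyte-erythroid progenitors and to granulocyte-monocyte progenitors. The compartment is known to be mixed, and many of its cells already lean towards one of these fates. Gata2 and its partners act on the megakaryocyte-erythroid and mast cell side, whereas Cebpa, Spi1 and Irf8 act on the granulocyte and monocyte side. Granule proteins are made in sequence, with the proteases of primary granules in early precursors and the proteins of later granules, such as lactoferrin, in more mature neutrophil precursors. A change of a transcript in a sorted population can come from fewer cells that carry it or from less RNA per cell, and bulk samples cannot tell these apart.

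The recovered depth was 20001328 to 21278928 reads per F1-L sample and 21355004 to 24761060 per F1-P sample. Values are the deposited CPM (reads relative to a library size scaled by the authors), and are given below in the order of replicates 1, 2 and 3. Of 18428 genes in the table, 12926 reached a CPM of 1 in at least 3 samples and were tested with limma on log2(CPM + 1). Differences between groups are log2 fold changes on this scale, F1-L minus F1-P, and are called log2 differences. On it the change of low genes comes out too small, and SE is the standard error of a difference. The median log2 difference over all tested genes was 0.04.

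The sorted identity was checked first on the genes of the surface proteins used to isolate the cells. Kit, the receptor of stem cell factor, had a CPM of 668, 563 and 536 in F1-L and 416, 475 and 450.2 in F1-P. Cd34 had a CPM of 282, 154 and 305 in F1-L against 194, 316 and 572 in F1-P, and the groups overlapped. Both defining markers were therefore abundant in all 6 samples. Ly6a, which encodes Sca-1, had a CPM of 1.14 to 6.70 in the 6 CMP samples, against 293 to 879 in the 6 LSK samples (the Sca-1-positive stem and progenitor compartment) of the same strain. The 2 tables were normalized separately, but the gap exceeded the spread within either. The methods text of the study names CMPs as Sca-1-positive, and the transcript level in these samples goes against that wording.

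Genes of the antigens that the sort excluded were not at the same level in all samples. Itgam, which encodes CD11b, had a CPM of 4.32, 1.60 and 4.98 in F1-L and 3.60, 34.6 and 46.9 in F1-P. Ly6g, an antigen of mature neutrophils recognised by Gr-1 antibodies, had a CPM of 0.273, 0.258 and 1.94 in F1-L and 1.25, 27.5 and 38.7 in F1-P. For both genes replicates 2 and 3 of F1-P stood high, and replicate 1 of F1-P lay within the range of F1-L. The CD16/32 gene Fcgr3 had the same order, with a CPM of 2.35, 21.5 and 28.7 in F1-P and 1.39 to 5.92 in F1-L. Its paralogue Fcgr2b ranged from 7.74 to 20.1 in F1-L and from 10.3 to 39.0 in F1-P. Ptprc, which encodes CD45 with the B220 isoform among its products, had a CPM of 96.8 to 170.3 in F1-L and of 115, 295 and 394 in F1-P.

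Across all expressed genes the groups differed in many genes by a little, and hardly any gene passed the correction. With a minimum fold of 1.5 and Benjamini-Hochberg adjustment to 0.05, limma called 1 of the 12926 genes (0.00774%). At an unadjusted p below 0.05, 588 genes were higher in F1-L (4.55%) and 679 were lower (5.25%). Groups did not overlap in 1222 genes that were higher in F1-L (9.45%) and in 849 that were lower (6.57%). edgeR's likelihood ratio test on the recovered reads, the type of model that the study used, called 34 genes higher (0.263%) and 274 lower (2.12%) in F1-L. The study itself reported more genes for these 2 groups, most of them also lower in F1-L. DESeq2 called 50 higher and 301 lower, and edgeR's quasi-likelihood test called 1. By their means 7499 genes were higher and 5427 lower in F1-L, while the calls of the likelihood ratio test and DESeq2 lay mostly on the lower side. The called gene was Col1a1, a collagen chain of bone and connective tissue (chromosome 11, 94936224 to 94953042, GRCm38). Its reads were 2, 1 and 2 in F1-L and 138, 196 and 216 in F1-P. The ratio of the pooled reads, F1-P over F1-L, was 97.8, with an exact 95% counting interval of 41.6 to 302. It fell by 3.04 on the log2 scale (SE 0.154), at an adjusted p = 0.0078 by limma, and the smallest adjusted p of any other gene was 0.283. The call was lost when any sample other than replicate 1 of F1-P was left out, where the adjusted p was 0.0866 to 0.163. The collagen gene Col1a2, named here after its values were seen, differed far less and was not called. Its log2 difference was −0.67 (SE 0.222). Its groups were apart by a narrow margin, at a CPM of 8.32 in F1-L replicate 1 against 8.4998 in F1-P replicate 1. In LSK the log2 difference of Col1a1 was −0.62 (SE 0.66). All differences of other genes below did not pass the correction in limma and are given as values.

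The number of calls turned on replicate 1 of F1-P. Without that sample, limma called 510 genes, 44 of them higher and 466 lower in F1-L, and 3335 genes had an unadjusted p below 0.05. Without replicates 2 and 3 of F1-P, a setting chosen after seeing the data in which the lone F1-P sample is assumed to vary like the F1-L samples, 0 genes were called by limma, and of 511 genes with an unadjusted p below 0.05 the share that was higher in F1-L was 67.7%. Leaving out any other single sample gave 0 calls and 606 to 859 genes at an unadjusted p below 0.05.

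The spread among replicates was wider in prediseased than in lupus CMPs. The median standard deviation (SD) of log2(CPM + 1) over genes was 0.153 in F1-L against 0.219 in F1-P, and 9379 of the 12926 genes (72.6%) varied more in F1-P. An SD above 1 was found for 40 genes in F1-L and 377 in F1-P, of which 30 were shared. edgeR's common biological coefficient of variation was 19.1% in F1-L against 30.0% in F1-P, and it was 17.1% for replicates 2 and 3 of F1-P on their own. That pair was chosen after seeing the data, and no value was computed for a pair of F1-L samples, so 17.1% cannot be set against 19.1%.

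**Figure D1:**
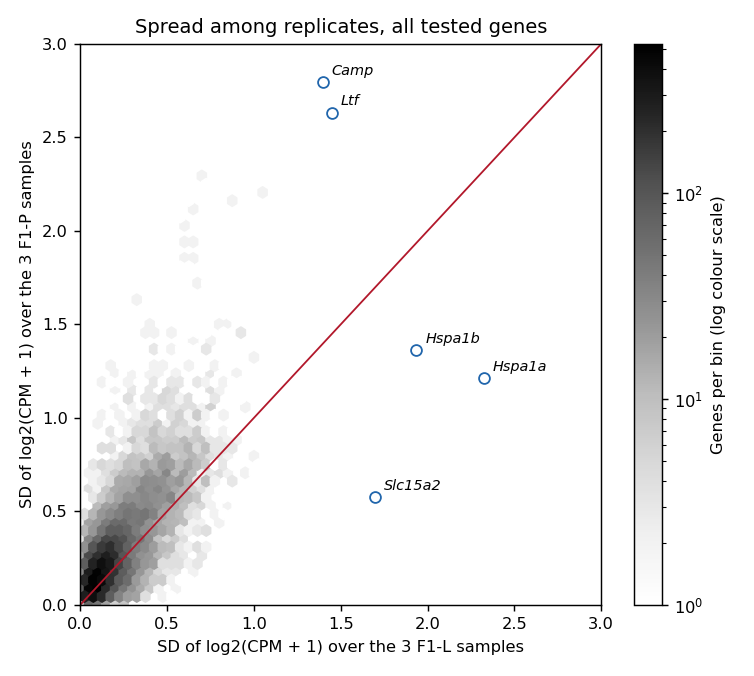
Standard deviation of log2(CPM + 1) of each tested gene over the 3 F1-L samples (horizontal axis) and over the 3 F1-P samples (vertical axis), as bins shaded by the number of genes on a log colour scale, with the line of equal spread. Most genes (72.6%) lie above the line, the granule genes Ltf and Camp far above it, and Hspa1a, Hspa1b and Slc15a2 below it.

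Replicate 1 of F1-P was closer to a lupus sample than to its own group. Across genes, which are not independent replicates, its log2 values correlated with those of F1-L replicate 2 at a Pearson r of 0.990, and with F1-P replicates 2 and 3 at 0.969 and 0.945. Only 283 genes (2.19%) differed more than 2-fold between it and F1-L replicate 2, whereas 883 (6.83%) and 1895 (14.7%) did between it and the other F1-P samples. F1-P replicates 2 and 3 were close to each other, with 141 genes (1.09%) above this limit. Within F1-L, replicate 2 stood apart from replicates 1 and 3, with 514 and 578 genes, and replicates 1 and 3 differed in 93.

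The first principal component held 70.5% of the variance and did not follow the groups. Its scores were −14.6, −45.1 and −7.1 in F1-L and −24.6, 35.6 and 55.8 in F1-P. Its high end was led by genes of later neutrophil granules (Ltf, Mmp9, Ngp, S100a9 and Retnlg). At the low end, the leading entries were Mir6236, Gm15564, Gm23935 and Lars2, named here after their values were seen. Lars2, a mitochondrial leucyl-tRNA synthetase, had a CPM of 745.9, 940.3 and 801 in F1-L and 848, 346 and 122 in F1-P. The miRNA locus Mir6236 had a CPM of 317, 423 and 426 in F1-L and 436, 148 and 28.6 in F1-P. The libraries were mRNA libraries, and the source of the reads at these low-end loci was not tested. The second component (18.3% of variance) ranked 2 of 3 F1-L samples highest, with scores of 28.5, −6.0 and 14.2 in F1-L and −24.8, −14.6 and 2.7 in F1-P. Serpina3g, Mycn, Rtp4 and Gm12250 were among its leading genes at the high end, and Slc4a1, Nr4a3 and Cxcl10 at the low end.

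**Figure D2:**
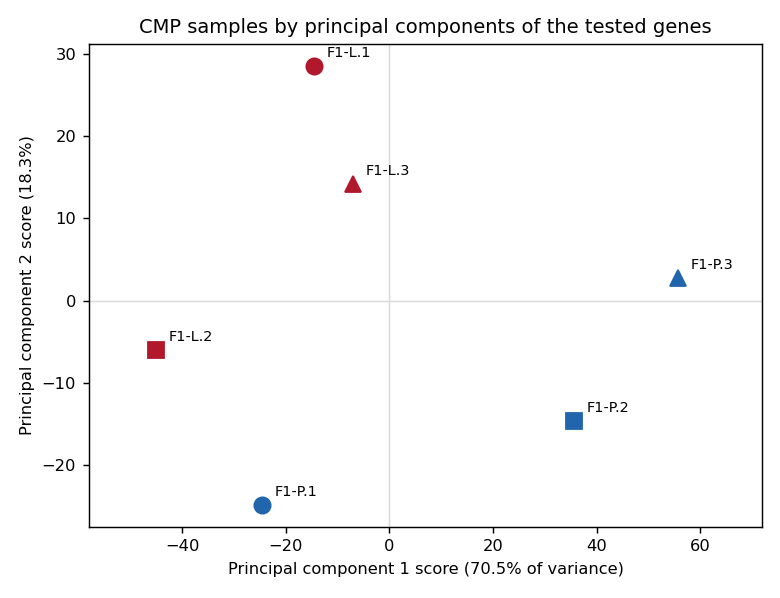
Scores of the 6 CMP samples on the first 2 principal components of log2(CPM + 1) over the tested genes, red for F1-L and blue for F1-P. Replicates 2 and 3 of F1-P lie alone on the right, at 35.6 and 55.8, while replicate 1 of F1-P lies on the left at −24.6, within the range of F1-L on the first component.

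Granule genes were among the 10 genes with the widest spread in both groups. In F1-P the top 5 were Camp, S100a8, Ltf, Ngp and Cd177, all of neutrophil granules or neutrophil surface, with SDs of 2.59 to 2.79. In F1-L the top 2 were Hspa1a and Hspa1b, the inducible Hsp70 genes, and Ngp, Ltf, S100a8, S100a9 and Camp took ranks 6 to 10. Hspa1a had a CPM of 17.8, 1.96 and 72.2 in F1-L and 14.7, 29.7 and 4.78 in F1-P. Hspa1b followed the same order, with 68.8, 12.9 and 198 in F1-L against 52.6, 78.3 and 12.1 in F1-P, and as the 2 genes are nearly identical their reads could be split between them. The groups overlapped for both. Slc15a2, a peptide transporter, had a CPM of 16.5, 0.671 and 5.03 in F1-L and 12.3, 8.74 and 5.01 in F1-P. Ranks 4 and 5 in F1-L were the immunoglobulin genes Ighg1 and Igkv14-126, whose CPM ranged from 0.0909 to 8.11 and from 0 to 6.27 in that group.

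The balance of lineages inside CMPs was read from 29 gene lists, each described by its counts and its median beside the 0.04 of all tested genes. Lists of erythro-megakaryocytic factors, megakaryocyte genes and stem genes had medians above it, whereas lists of late granules, B lineage, plasma cells, chemokines and NF-kB feedback had the lowest medians. The mean level of a list over its tested genes did not overlap between groups for 4 of the 29 lists. For single genes over all tested, the groups did not overlap in 9.45% on the higher side and 6.57% on the lower side. The erythro-megakaryocytic transcription factors were higher in all F1-L samples, and the lists of B lineage, stromal and NF-kB feedback genes were lower in all of them. For the stromal list the margin was narrow, at 2.94 in F1-L replicate 1 against 3.07 in F1-P replicate 1. It rested on the called gene Col1a1, 1 of the 13 tested members of that list.

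**Figure D3:**
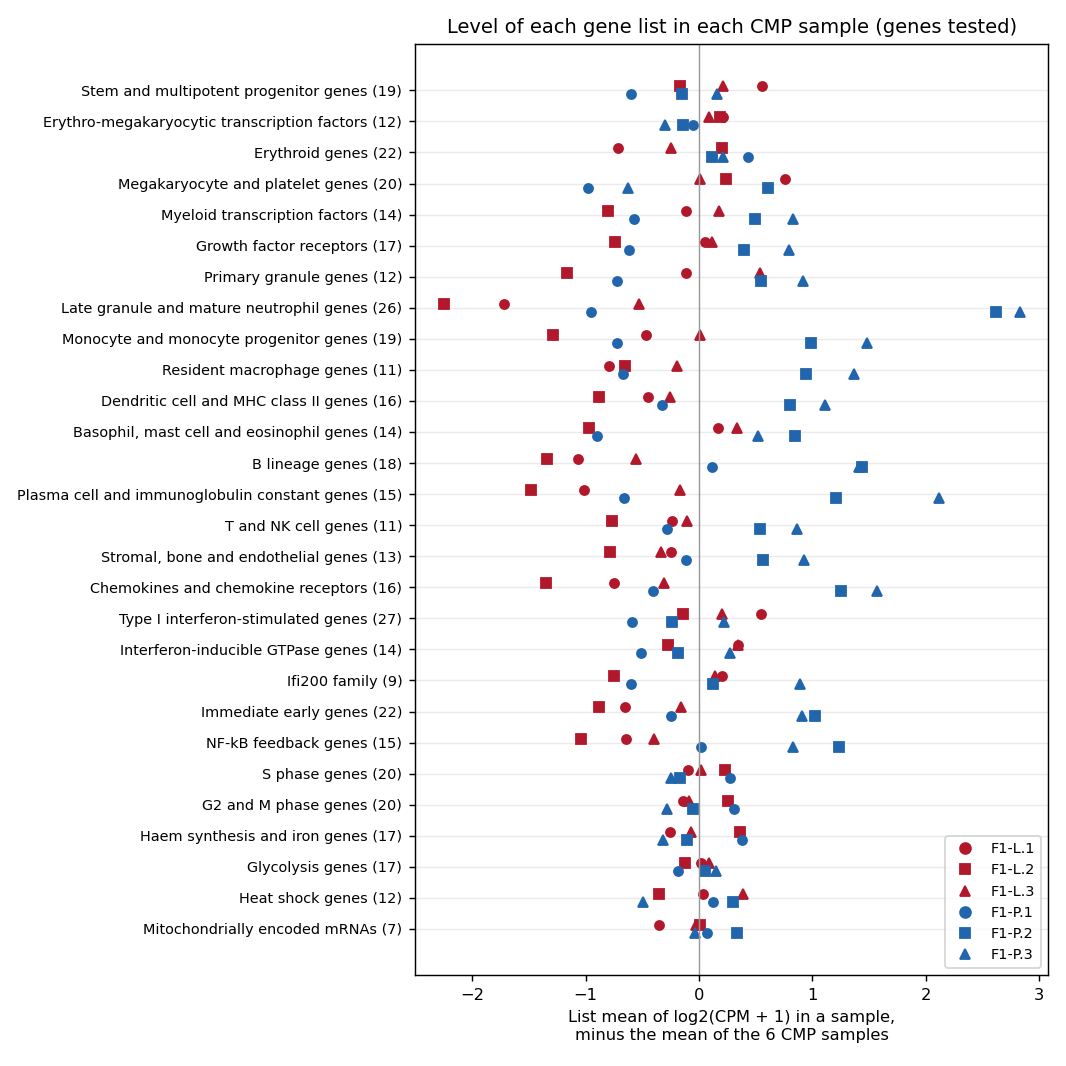
Mean of log2(CPM + 1) over the tested genes of each list in each CMP sample, minus the mean of the 6 samples, with the number of genes in brackets, red for F1-L and blue for F1-P, and circle, square and triangle for replicates 1, 2 and 3. For late granule genes replicates 2 and 3 of F1-P stand far to the right and replicate 1 lies among the F1-L samples, whereas for B lineage and NF-kB feedback genes all 3 F1-P samples lie right of all F1-L samples.

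On the megakaryocyte-erythroid side, the mean level of the transcription factor list was higher in all 3 F1-L samples than in any F1-P sample. Of 12 erythro-megakaryocytic factors, 10 were higher in F1-L by their means and 2 were lower, 3 of the higher ones at an unadjusted p below 0.05 (background 4.55%), and the median log2 difference was 0.33. Gata2, a zinc finger factor of stem, mast and early megakaryocyte-erythroid cells (chromosome 6, 88193891 to 88207032), had a CPM of 179, 107 and 129 in F1-L and 62.2, 61.5 and 64.4 in F1-P. The F1-P samples were almost equal and every F1-L sample lay above them, with a log2 difference of 1.10 (SE 0.183), and the likelihood ratio test called it. Nfe2, a subunit of a factor of platelet formation, had a CPM of 149, 119 and 129.6 against 91.1, 97.7 and 113. Lmo2, a bridging protein of the Gata and Tal1 complex, had a CPM of 429, 455 and 431 against 417, 322 and 356, a difference of 0.27 (SE 0.112) on the log2 scale. The list median was 0.01 without F1-P replicates 2 and 3, and Gata2 and Nfe2 kept their direction in every alternative tried.

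Megakaryocyte and platelet genes were higher by their means in 17 of 20 members tested, with a median log2 difference of 0.89. An unadjusted p below 0.05 was reached by 5 members (background 4.55%), and 4 did not overlap between groups (background 9.45%), all of them higher. Gp5, a subunit of the platelet von Willebrand factor receptor, had a CPM of 37.5, 45.4 and 29.0 in F1-L and 21.2, 19.5 and 7.76 in F1-P. All F1-L samples lay above all F1-P samples, with a log2 difference of 1.25 (SE 0.382). Mmrn1, a protein of platelet granules, had a CPM of 30.8, 21.6 and 19.1 against 4.56, 19.2 and 4.47, so that F1-P replicate 2 reached the level of F1-L. The summed CPM of the list, 673 to 1184 in F1-L and 316 to 1178 in F1-P, did overlap.

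Erythroid genes went in both directions, and the globins and band 3 were lower in F1-L. Of 22 tested, 14 were higher and 8 lower in F1-L, with a median log2 difference of 0.10, and of the 6 with an unadjusted p below 0.05, 5 were lower (background 5.25%). The median turned to −0.16 without F1-L replicate 2 and to −0.14 when F1-P replicate 3 was left out, and was −0.46 without F1-P replicates 2 and 3. Slc4a1, the anion exchanger band 3 of red cells (chromosome 11, 102348824 to 102366203), had a CPM of 3.09, 9.50 and 11.6 in F1-L and 55.1, 95.0 and 423 in F1-P. Its log2 difference was −4.01 (SE 0.803). The alpha-globin gene Hba-a1 had a CPM of 15.1, 29.6 and 53.8 against 117, 108 and 321, a log2 difference of −2.42 (SE 0.572). The beta-globin gene Hbb-bs had a CPM of 10.8, 45.3 and 30.4 against 79.5, 150.2 and 491. Hbb-bt had a CPM of 1.41, 3.56 and 4.28 against 6.92, 21.7 and 97.4, and reads may be split between these near-identical beta-globin copies. In all 4 genes every F1-P sample lay above every F1-L sample, replicate 1 included, and replicate 3 of F1-P was highest. The likelihood ratio test called 5 genes of this list lower (background 2.12%). Slc25a37 (mitoferrin 1), which carries iron into mitochondria for haem, was also lower without overlap, with a CPM of 147, 130.4 and 128 against 173, 188 and 352. The 17 haem synthesis and iron genes had a median of 0.07, and Slc25a37 was their only member at an unadjusted p below 0.05 (background 5.25%). That median turned to −0.15 without F1-L replicate 2 and to −0.13 when F1-P replicate 3 was left out, and was −0.37 without F1-P replicates 2 and 3.

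Genes of stem and multipotent cells had a median log2 difference of 0.50, with 14 of 19 members higher by their means, 6 of these at an unadjusted p below 0.05 (background 4.55%) and 6 without overlap (background 9.45%). The other 5 were lower by their means, namely Flt3, Sox4, Cd27, Cd48 and Gimap6, named here after their values were seen. Flt3 had a CPM of 134, 89.9 and 175 in F1-L and 147, 209 and 396 in F1-P (log2 difference −0.84, SE 0.402), and overlapped. Of these 5, 1 had an unadjusted p below 0.05 (background 5.25%). This was Gimap6, a small GTPase, with a CPM of 28.9, 17.7 and 33.1 in F1-L and 32.9, 59.4 and 75.4 in F1-P, and the groups overlapped. Mycn, a Myc family factor, had a CPM of 27.6, 14.2 and 14.0 in F1-L and 4.32, 7.33 and 6.19 in F1-P (log2 difference 1.46, SE 0.31). Tek, the angiopoietin receptor Tie2 (chromosome 4, 94739289 to 94874976), had a CPM of 15.5, 7.28 and 8.86 against 2.74, 4.24 and 3.45. The likelihood ratio test called both. The adhesion protein Esam had a CPM of 12.4, 5.73 and 6.12 against 1.39, 4.28 and 1.96. Slamf1, the CD150 antigen of stem cells, had a CPM of 8.68, 2.12 and 3.23 against 1.25, 1.59 and 1.06. In Mycn, Tek, Esam and Slamf1, F1-L replicate 1 was the highest sample and no F1-P sample reached the lowest F1-L sample. The median of the list was 0.95 without F1-P replicates 2 and 3.

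Other genes with large positive differences belonged to none of the lists. Serpina3g, an intracellular serine protease inhibitor (chromosome 12, 104236245 to 104241939), had a CPM of 124, 35.5 and 71.5 in F1-L and 12.8, 17.7 and 26.9 in F1-P. Its log2 difference of 1.84 (SE 0.477) was the largest among higher genes that met the naming rule, and it has close paralogues between which reads could be split. The scavenger receptor Scarf1 had a CPM of 22.1, 8.21 and 12.9 against 2.98, 6.80 and 5.60. Pde10a, a cyclic nucleotide phosphodiesterase, had 13.1, 7.43 and 5.27 against 1.30, 4.99 and 2.35. Csgalnact1, an enzyme of chondroitin sulfate synthesis, had 24.1, 10.7 and 13.3 against 4.66, 6.88 and 7.05. Again F1-L replicate 1 was highest in each.

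**Figure D4:**
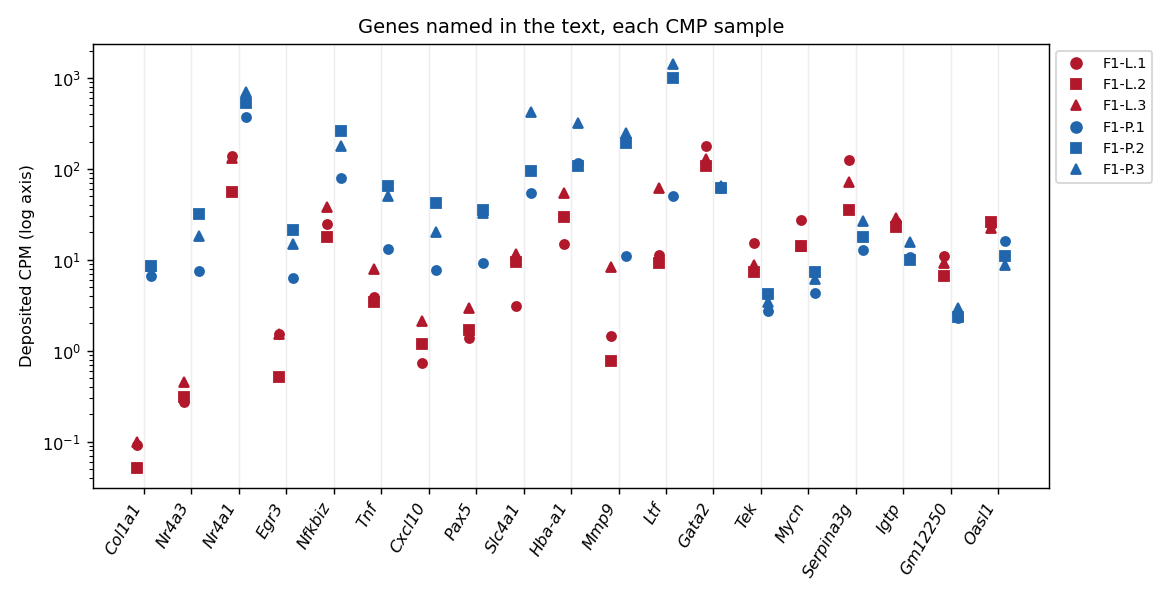
Deposited CPM on a log axis of 19 genes named in the text in each CMP sample, red for F1-L and blue for F1-P, and circle, square and triangle for replicates 1, 2 and 3. For Gata2 the 3 F1-P points coincide near 62 below all F1-L points, for Nr4a3 and Pax5 all F1-P points lie above those of F1-L, and for Ltf replicate 1 of F1-P lies below F1-L replicate 3.

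On the granulocyte and monocyte side, the primary granule genes overlapped and the late granule genes split the F1-P samples. Myeloid transcription factors had a median log2 difference of −0.63 over 14 genes, of which 1 had an unadjusted p below 0.05 (Nfil3, lower, background 5.25%). The median turned to 0.28 without F1-P replicates 2 and 3. The groups did not overlap in 2 members (background 9.45%), Cebpg and Per3, which were higher in F1-L and are named here after their values were seen. Cebpg, a C/EBP family member, had a CPM of 80.3, 65.9 and 72.0003 in F1-L against 64.4, 64.3 and 65.3 in F1-P. Per3, a clock gene, had 34.2, 22.6 and 25.6 against 18.9, 21.9 and 19.98. Nfil3, a basic leucine zipper factor, had a CPM of 6.82, 4.23 and 11.7 in F1-L and 8.69, 21.0 and 28.1 in F1-P. Irf8, a factor of monocyte and dendritic cell fate, had a CPM of 169, 87.1 and 209 in F1-L and 139, 183 and 410.4 in F1-P. The 12 primary granule genes had a median of −0.32, and 0 of them reached an unadjusted p below 0.05 by limma. That median turned to 0.20 without F1-L replicate 2 and to 0.49 without F1-P replicates 2 and 3. Mpo, the gene of myeloperoxidase (chromosome 11, 87793581 to 87804413), had a CPM of 2242, 1052 and 3274 in F1-L and 1394, 2665 and 3943 in F1-P. Prtn3, the gene of proteinase 3, had a CPM of 358, 150.3 and 612 in F1-L and 197, 386 and 536 in F1-P. The lowest values of both genes came from F1-L replicate 2 and F1-P replicate 1, and the difference of means changed sign without F1-L replicate 2 or without F1-P replicate 3.

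All 26 tested genes of late granules and mature neutrophils were lower in F1-L by their means, 20 of them at an unadjusted p below 0.05 (background 5.25%). The median log2 difference was −2.80, with calls by the likelihood ratio test in 20 (background 2.12%). Only 5 of the 26 did not overlap between groups (background 6.57%). Ltf, the gene of lactoferrin (chromosome 9, 111019271 to 111042767), had a CPM of 11.4, 9.14 and 62.2 in F1-L and 50.7, 1015 and 1424 in F1-P. The calcium-binding S100a9 had a CPM of 23.0, 17.9 and 118 against 94.0, 1801 and 2329. In both, F1-P replicate 1 lay below F1-L replicate 3, while F1-P replicates 2 and 3 stood far above every other sample. The gelatinase Mmp9 (chromosome 2, 164940780 to 164955850) and the resistin-like Retnlg were among the 5 without overlap, but by a narrow margin. Mmp9 had a CPM of 1.45, 0.774 and 8.26 in F1-L and 11.0, 194 and 246 in F1-P. Retnlg had a CPM of 1.59, 0.826 and 7.46 against 9.60, 191 and 203. Mmp8, the neutrophil collagenase, had a CPM of 1.86, 1.03 and 6.52 against 8.16, 144 and 209. The summed CPM of the list was 194.5, 117 and 627 in F1-L against 413, 7541 and 9710 in F1-P, and its median log2 difference was −0.52 without F1-P replicates 2 and 3. These proteins belong to cells that express the CD11b and Gr-1 antigens used for exclusion, and the part of such cells in the result was not tested.

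Among genes of monocytes, Lyz2, Lgals3 and Fgr were high in F1-P replicates 2 and 3 alone. All 19 monocyte genes tested were lower in F1-L by their means, 5 of them at an unadjusted p below 0.05 (background 5.25%), with a median of −0.74, and the 1 member without overlap (background 6.57%) was Nr4a1, which is also an immediate early gene described below. Lyz2, the gene of lysozyme, had a CPM of 64.9, 34.8 and 93.4 in F1-L and 63.1, 987 and 1295 in F1-P. The galectin gene Lgals3 had a CPM of 2.36, 1.08 and 4.28 against 2.88, 38.1 and 40.6, and Fgr, a Src family kinase, had 2.86, 1.39 and 4.43 against 3.31, 41.1 and 53.6. Other members of the list differed little and overlapped, and 3 are named here after their values were seen. The log2 difference was −0.17 (SE 0.554) for F13a1, −0.26 (SE 0.571) for Ccr2 and −0.31 (SE 0.587) for Ly6c2. Without F1-P replicates 2 and 3 the median of the monocyte list was 0.33, the opposite direction. Resident macrophage genes had a median of −1.20 over 11 genes, and 0.14 without those samples. An unadjusted p below 0.05 (background 5.25%) was reached by 1 of them, Hmox1, lower with 0.955, 1.75 and 4.58 against 2.69, 13.5 and 16.6. The macrophage genes with the highest CPM overlapped, with Slc40a1 (ferroportin) at 126 to 192 in F1-L and 92.5 to 168 in F1-P, and Cd163 at 20.1 to 28.3 and 19.7 to 42.5.

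Growth factor receptor genes were lower by their means in 15 of 17 members with a median of −0.26, which turned to 0.44 without F1-P replicates 2 and 3. In each direction 1 member had an unadjusted p below 0.05 (background 4.55% higher and 5.25% lower). Il1r2, the decoy receptor of interleukin 1, had a CPM of 0.0909, 0.258 and 0.398 in F1-L and 1.25, 10.3 and 7.99 in F1-P. Ifngr1, a chain of the interferon gamma receptor, had a CPM of 228, 236 and 236 in F1-L and 189, 204 and 171 in F1-P. Its samples were tight within each group and did not overlap, with a log2 difference of 0.32 (SE 0.0876). The receptor genes Lilr4b and Lilrb4a, near-identical neighbours, were among the genes with the largest negative differences. Lilr4b had a CPM of 0.864, 0.206 and 3.63 against 6.24, 88.3 and 65.3, and Lilrb4a had 0.909, 0.310 and 1.79 against 2.69, 41.5 and 34.3.

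Basophil, mast cell and eosinophil genes went in both directions. Of 14 tested, 6 were higher and 8 lower, with a median of −0.14. Fcer1a, the alpha chain of the IgE receptor, had a CPM of 5.09, 1.39 and 3.83 in F1-L and 0.192, 1.5003 and 1.41 in F1-P. Ms4a2, its beta chain, had a CPM of 6.46, 2.94 and 6.72 against 1.30, 3.04 and 2.31. Both had an unadjusted p below 0.05 and overlapped in 1 sample. Ear2, an eosinophil-associated ribonuclease of a multigene family, had a CPM of 1.18, 0.413 and 3.68 against 3.84, 37.7 and 22.9. The list median turned to 0.17 without F1-L replicate 2, to 0.10 without F1-P replicate 2 and to 0.082 when F1-P replicate 3 was left out, and was 0.90 without both F1-P samples.

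All 18 tested B lineage genes were lower in F1-L by their means, 16 at an unadjusted p below 0.05 (background 5.25%), and 16 did not overlap between groups (background 6.57%), against 5 of the 26 late granule genes. The median log2 difference was −2.03 and the likelihood ratio test called 13 lower (background 2.12%). Pax5, the factor of B cell commitment (chromosome 4, 44524757 to 44710487), had a CPM of 1.36, 1.70 and 2.99 in F1-L and 9.27, 34.9 and 32.5 in F1-P (log2 difference −2.97, SE 0.513). Cd79a, a signalling chain of the B cell receptor, had a CPM of 0.909, 0.826 and 2.64 against 5.23, 21.2 and 26.9. Fcrla, an Fc receptor-like protein of B cells, had a CPM of 0.227, 0.206 and 0.398 against 2.40, 16.5 and 19.7. In each, replicate 1 of F1-P was the lowest of its group and still above all F1-L samples. The list mean of log2(CPM + 1) was 1.76, 1.48 and 2.27 in F1-L against 2.94, 4.26 and 4.24 in F1-P, and the median was −1.13 without F1-P replicates 2 and 3. B220 was among the excluded antigens, and the part of B lineage cells in the result was not tested.

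Plasma cell and immunoglobulin constant genes had a median of −1.73, with 9 of 15 lower at an unadjusted p below 0.05 (background 5.25%) and 5 without overlap (background 6.57%). Irf4, a factor of plasma cells, had a CPM of 0.864, 0.413 and 1.49 in F1-L and 3.89, 26.7 and 21.3 in F1-P. Jchain, which joins IgA and IgM units, had a CPM of 8.18, 3.10 and 14.1 against 15.4, 73.5 and 140.2. The heavy chain genes Ighg2b and Igha were lower by their means, with a CPM of 0.818, 1.29 and 2.54 against 4.99, 21.2 and 55.1, and of 10.3, 1.91 and 11.99 against 10.6, 80.9 and 132. The share of reads on immunoglobulin genes was 0.0179% to 0.0516% in F1-L samples, against 0.0429%, 0.138% and 0.258% in F1-P. The plasma list had a median of −0.47 without F1-P replicates 2 and 3.

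Dendritic cell and MHC class II genes had a median of −1.14 over 16 genes, with 7 lower at an unadjusted p below 0.05 (background 5.25%) and 6 without overlap (background 6.57%), and the median was −0.079 without F1-P replicates 2 and 3. Spib, a factor shared by plasmacytoid dendritic and B cells (chromosome 7, 44525993 to 44532071), had a CPM of 0.773, 0.568 and 1.39 in F1-L and 3.89, 30.8 and 34.9 in F1-P. Siglech, a surface lectin of plasmacytoid dendritic cells, had 1.36, 0.568 and 1.69 against 2.16, 9.53 and 14.1. Cd74, the invariant chain, had 10.5, 4.95 and 14.7 against 16.7, 90.3 and 116. The class II chain H2-Aa had 6.37, 3.15 and 7.17 against 8.79, 28.4 and 36.3. T and NK cell genes were near the lower limit, and 11 of 23 listed genes were tested. Their median was −0.80, with Il2rb (1.05, 0.155 and 1.44 against 1.92, 6.93 and 9.75), Cd5 (0.273, 0.258 and 0.746 against 1.06, 1.59 and 1.45), Cd4 and Lck lower at an unadjusted p below 0.05 (background 5.25%).

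Stromal, bone and endothelial genes, of which Col1a1 is 1, were lower in F1-L by their means in 10 of 13 tested members, with 6 at an unadjusted p below 0.05 (background 5.25%), the same number without overlap (background 6.57%) and a median of −0.67. Fn1, the gene of fibronectin, had a CPM of 3.91, 1.75 and 6.17 in F1-L and 6.48, 98.7 and 135 in F1-P, the sample order of the late granule genes. Sparc, a matrix protein of bone, had 0.455, 0.155 and 0.199 against 1.68, 1.46 and 6.62. Cxcl12, the chemokine of marrow stroma, had 0.227, 0 and 0.597 against 1.06, 2.43 and 5.21. Sparc and Cxcl12 were thus below a CPM of 1 in every F1-L sample and low in F1-P.

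Immediate early and NF-kB feedback genes are those that cells induce rapidly on stimulation. Of 15 NF-kB feedback genes tested, 13 were lower in F1-L by their means, 11 of them at an unadjusted p below 0.05 (background 5.25%) and the same number without overlap (background 6.57%), with a median of −1.58. Nfkbiz, an inducible nuclear IkB protein (chromosome 16, 55811375 to 55838899), had a CPM of 24.6, 17.8 and 38.5 in F1-L and 80.2, 259.8 and 178 in F1-P (−2.55, SE 0.469). Tnf, the gene of tumour necrosis factor (chromosome 17, 35199381 to 35202007), had 3.86, 3.46 and 7.91 against 13.2, 64.8 and 50.5 (−2.65, SE 0.609). The subunit Rel had 23.6, 11.2 and 28.2 against 38.7, 135 and 141, and Ptgs2, cyclooxygenase 2, had 14.9, 5.16 and 10.8 against 24.0, 37.2 and 50.8. Their list mean was 4.68, 4.29 and 4.93 in F1-L against 5.35, 6.57 and 6.16 in F1-P, and the median was −0.76 without F1-P replicates 2 and 3.

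Among immediate early genes, 21 of 22 were lower in F1-L by their means, 10 at an unadjusted p below 0.05 (background 5.25%) and 8 without overlap (background 6.57%), with a median of −0.96. The list mean of log2(CPM + 1) overlapped, with 5.59, 5.36 and 6.09 in F1-L against 6.00, 7.27 and 7.15 in F1-P. The 1 higher gene was Myc, named here after its values were seen, with a CPM of 415, 331 and 386 in F1-L and 243, 215 and 274 in F1-P. The nuclear receptor gene Nr4a3 (chromosome 4, 48045153 to 48086447) had a CPM of 0.273, 0.310 and 0.448 in F1-L and 7.44, 31.8 and 18.5 in F1-P (−3.71, SE 0.472), and is named by the size of its difference and not as a list member. Its relative Nr4a1 (chromosome 15, 101254269 to 101274795) had 141, 55.3 and 134 against 371, 528 and 702 (−2.34, SE 0.407). Egr3 (chromosome 14, 70077203 to 70082614), a zinc finger factor, had 1.55, 0.516 and 1.54 against 6.34, 21.3 and 14.9 (−2.68, SE 0.444). Fosl2, an AP-1 subunit, had 22.8, 8.93 and 26.8 against 42.9, 134 and 131. In these 4 genes every F1-P sample lay above every F1-L sample. Atf3, a stress-induced factor, overlapped, with 3.86, 5.83 and 15.6 against 12.9, 92.1 and 62.0. The median of this list was −0.16 without F1-P replicates 2 and 3. Unlike these genes, 12 tested heat shock genes had a median of 0.06, which turned to −0.025 without F1-L replicate 3 and to −0.18 without F1-P replicate 3, and none passed an unadjusted p of 0.05 in limma. The late granule genes were highest in the same 2 samples as the immediate early genes, F1-P replicates 2 and 3, and the part of mature cells in these differences was not tested.

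Chemokine and chemokine receptor genes were lower by their means in all 16 tested members, 10 of them at an unadjusted p below 0.05 (background 5.25%) and 7 without overlap (background 6.57%), with a median of −1.57. Cxcl10, an interferon-induced ligand (chromosome 5, 92346638 to 92348889), had a CPM of 0.727, 1.19 and 2.14 in F1-L and 7.64, 42.2 and 20.4 in F1-P (−3.13, SE 0.582). Cxcl2, a ligand for neutrophils, had 2.86, 1.81 and 9.01 against 14.8, 69.2 and 57.8 (−3.08, SE 0.701). For both, replicate 1 of F1-P was above all F1-L samples. By contrast, Ccl6 (2.14, 1.03 and 4.08 against 3.41, 42.7 and 45.9) and the receptor Ccr1 (0.500, 0.206 and 1.84 against 1.58, 21.1 and 24.0) had F1-P replicate 1 inside the range of F1-L. The median was −0.53 without F1-P replicates 2 and 3.

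Part of the interferon-inducible genes were higher in all F1-L samples, 7 of 14 GTPases and 6 of 27 type I interferon-stimulated genes. Cells make these transcripts after type I interferons through interferon-stimulated response elements (ISRE), or after interferon gamma through gamma-activated sites (GAS). The immunity-related GTPases, to which Igtp, Tgtp1 and Iigp1 belong, are a mouse family that acts on the vacuoles of intracellular pathogens. Of 14 tested interferon-inducible GTPases, 10 were higher by their means, 7 of them at an unadjusted p below 0.05 (background 4.55%) and the same number without overlap (background 9.45%), with a median of 0.55, and the likelihood ratio test called 7 higher (background 0.263%). Igtp (chromosome 11, 58199556 to 58207591) had a CPM of 26.4, 23.0 and 29.1 in F1-L and 10.7, 9.84 and 15.7 in F1-P, a log2 difference of 1.08 (SE 0.201). Iigp1 had 4.09, 2.79 and 3.98 against 0.768, 0.750 and 1.80 (1.16, SE 0.244). Tgtp1 (chromosome 11, 48985327 to 48994172), which has a near-identical copy in Tgtp2, had 2.32, 1.29 and 2.39 against 0.336, 0.441 and 0.940 (0.93, SE 0.231). Gm12250 (chromosome 11, 58187739 to 58189012), also of the immunity-related family though annotated in GENCODE M21 as a processed pseudogene, had 11.1, 6.71 and 9.16 against 2.31, 2.34 and 2.98 (1.48, SE 0.209). In these genes the F1-L samples lay above all F1-P samples, and F1-P replicate 1 lay with the rest of its group. The other 4 members, Gbp3, Gbp4, Gbp8 and Gbp9, guanylate-binding proteins of a family with similar members, were lower by their means. Gbp9 had 1.23, 0.155 and 2.64 against 1.92, 5.34 and 7.64, and overlapped. Gbp4, named here after its values were seen, was the 1 lower member without overlap (background 6.57%). It had 1.96, 0.103 and 2.14 against 2.21, 3.84 and 7.36. The list mean of log2(CPM + 1) overlapped, with 3.53, 2.91 and 3.53 in F1-L against 2.68, 3.01 and 3.46 in F1-P.

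The stretches before the start sites of Igtp, Tgtp1 and Gm12250 are printed because these GTPase genes were higher together in all F1-L samples. They are the 150 bases upstream of the RefSeq start in GRCm38.p6, chr11:58199406-58199555 on the plus strand, chr11:48992247-48992396 on the minus strand and chr11:58183693-58183842 on the plus strand, each written 5′ to 3′ on the strand of the gene. For Gm12250 the RefSeq start lies upstream of the GENCODE model. For Tgtp1 the RefSeq start and the printed window lie inside the GENCODE model. Capitals mark matches, on either strand, to the ISRE core GAAANNGAAA or to the GAS letters TTCNNNGAA, which read the same on both strands.
Igtp: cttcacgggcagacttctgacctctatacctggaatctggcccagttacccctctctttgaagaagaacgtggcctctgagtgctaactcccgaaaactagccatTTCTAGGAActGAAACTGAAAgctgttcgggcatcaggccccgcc
Tgtp1: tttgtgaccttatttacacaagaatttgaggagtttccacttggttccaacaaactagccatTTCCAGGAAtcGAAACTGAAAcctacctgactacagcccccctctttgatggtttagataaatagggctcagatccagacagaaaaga
Gm12250: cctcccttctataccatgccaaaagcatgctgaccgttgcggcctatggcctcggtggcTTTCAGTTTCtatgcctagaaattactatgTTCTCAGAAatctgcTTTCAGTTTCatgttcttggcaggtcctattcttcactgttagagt
Igtp and Tgtp1 each held 1 match to either motif, and Gm12250 held 2 ISRE cores and 1 GAS. The ISRE core began 34 bases before the start in Igtp and 77 in Tgtp1, in both just downstream of the GAS match. Of all 32851 RefSeq windows of this length, 1.59% held the ISRE core and 4.09% the GAS letters. The same window of Oasl1 (chr5:114923090-114923239) held 0 matches to either motif. These matches are letters in a window, and no binding was measured.

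Type I interferon-stimulated genes were higher by their means in 24 of 27 members, 9 at an unadjusted p below 0.05 (background 4.55%) and 6 without overlap (background 9.45%), with a median of 0.40. Oasl1, a relative of the oligoadenylate synthetases (chromosome 5, 114923240 to 114937915), had a CPM of 24.1, 25.9 and 22.3 in F1-L and 16.2, 11.2 and 8.73 in F1-P (0.98, SE 0.224). Rtp4, a chaperone of receptor transport, had 11.8, 5.88 and 7.81 against 1.34, 2.87 and 4.47 (1.32, SE 0.371). Oas1a had 18.4, 10.4 and 16.0 against 5.38, 7.90 and 11.0, and Xaf1 had 17.0, 8.98 and 12.99 against 5.71, 7.06 and 9.09. Oas1a and Xaf1 overlapped in 1 sample, F1-L replicate 2, which was the lowest of its group for Rtp4 as well. The list mean of log2(CPM + 1) overlapped, with 4.26, 3.57 and 3.92 in F1-L against 3.12, 3.48 and 3.93 in F1-P. The summed CPM of the list was 513 to 710 in F1-L against 393 to 549.9 in F1-P. The Ifi200 family, cytosolic DNA sensors, was lower by the means of all 9 tested members with a median of −0.18, but 0 of them reached an unadjusted p below 0.05 by limma or a call by the likelihood ratio test. The Ifi200 median turned to 0.067 without F1-L replicate 2 and to 0.15 when F1-P replicate 3 was left out, and was 0.53 without F1-P replicates 2 and 3.

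Cell cycle and glycolysis genes differed little between the groups. The medians were 0.08 over 20 S phase genes, 0.03 over 20 genes of G2 and M phase and 0.06 over 17 glycolysis genes, and 0 members of these lists had an unadjusted p below 0.05 in limma or a call by the likelihood ratio test. The S phase list mean was 7.68 to 8.01 in F1-L against 7.53 to 8.06 in F1-P, with the highest values in F1-L replicate 2 and F1-P replicate 1. Without F1-L replicate 2 or F1-P replicate 3 the S phase median turned to −0.0196 and −0.0277, and the G2 and M phase median to −0.10 and −0.11. Mitochondrially encoded mRNAs were lower by their means in all 7 tested members with a median of −0.25. mt-Nd2, a subunit of complex I, was 1 of the 2 that did not overlap (background 6.57%), with 1014, 1264 and 1167 against 1508, 1928 and 1361.

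Set beside LSK of the same strain, ages and disease states, the list medians were as follows. The 2 tables were normalized separately and hold separate samples, each contrast was fitted within its table, and the difference between them was not tested. Late granule genes had a median log2 difference of −2.80 in CMPs and 2.54 in LSK, where 25 of 26 were higher at an unadjusted p below 0.05 (background in LSK 8.58%). Primary granule genes stood at −0.32 and 1.37, monocyte genes at −0.74 and 1.05, and resident macrophage genes at −1.20 and 1.498. Of the 8 genes of sorted surface proteins, 7 were higher in F1-L LSK by their means. Itgam had a CPM of 71.2, 34.6 and 17.7 in F1-L LSK and 5.52, 7.24 and 13.7 in F1-P LSK. Ly6g had 44.8, 17.3 and 5.48 against 1.20, 2.45 and 5.98, and overlapped. The part of mature cells in the LSK values was not tested. Lists on the megakaryocyte-erythroid and stem side were above 0 in both CMPs and LSK, at 0.89 and 1.14 for megakaryocyte genes, 0.33 and 0.76 for erythro-megakaryocytic factors and 0.50 and 0.52 for stem genes. B lineage genes were below 0 in both, at −2.03 and −1.08. NF-kB feedback genes stood at −1.58 in CMPs and −0.32 in LSK, and chemokine genes at −1.57 and 0.15. Gata2 was higher in both, by 1.10 and 1.48. Over 12627 genes tested in both tables, 297 had an unadjusted p below 0.05 in each. The direction was shared by 222 of them and opposite in 75, of which 74 were lower in CMPs and higher in LSK. The Pearson r of the log2 differences across these 12627 genes, which are not independent replicates, was −0.06.

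**Figure D5:**
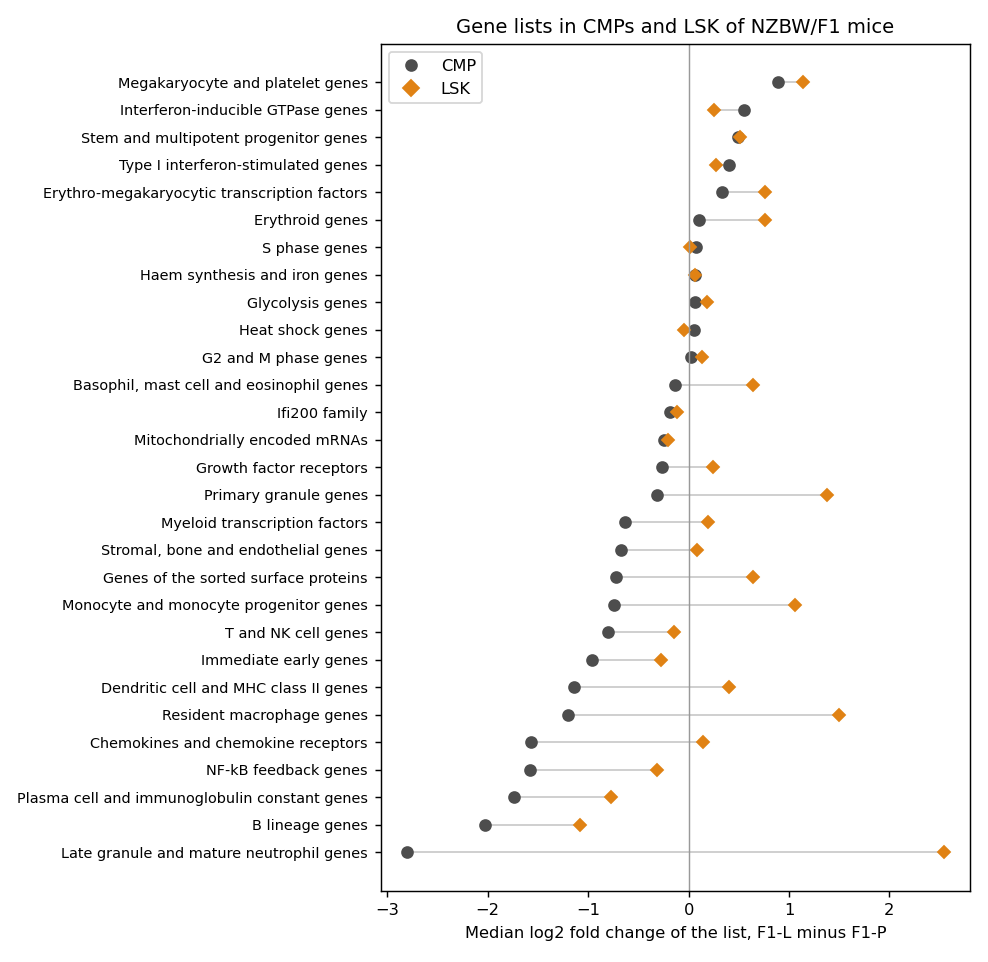
Median log2 difference, F1-L minus F1-P, of each gene list in CMPs (grey circles) and in LSK (orange diamonds), ordered by the CMP value. Late granule genes lie at −2.80 in CMPs and 2.54 in LSK, whereas megakaryocyte genes lie above 0 and B lineage genes below 0 in both.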

How the data were processed

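RNA was extracted from sorted bone marrow CMPs with the NucleoSpin XS kit, and libraries were made with TruSeq v2 and sequenced single-end on a NextSeq. Per the methods, reads were aligned with STAR 2.6 to mm10 (GRCm38), counted per gene with HTSeq and analysed with edgeR. The deposited values are a signal in CPM of a scaled library size, computed by the authors. They gave whole reads for 100.0% of values (tolerance 0.1 read), and the recovered reads were used for edgeR 4.0.16 and DESeq2 1.42.0 as alternatives. The test was planned for CPM and was kept, although column sums (967456 to 1033220) differ between samples.

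Genes that reached a CPM of 1 in 3 or more samples were tested in R 4.3.3 with limma 3.58.1 on log2(CPM + 1) with an intensity trend and Benjamini-Hochberg adjustment, and calls required an adjusted p up to 0.05 with a minimum fold of 1.5. The script was tested on simulated data. The comparison, the 29 lists (552 genes) and the tests were chosen with earlier results of these data known. Named genes were called genes and those of the sorted surface proteins, the 10 with the largest difference in each direction among non-overlapping genes of mean CPM 5 or more whose unadjusted p was below 0.05, up to 4 members of each list with the largest difference at an unadjusted p below 0.05 (or, with fewer than 2 of these, the 2 most abundant members), and the 5 most variable genes of each group. Lists share some members, and a few listed genes outside the table were not used here. Antisense and overlapping genes may share reads. Alternatives changed the pseudocount, the filter, the scaling, the variance model, the tool, the replicate block and the samples, and 1 was chosen after seeing the data. Fits with the late granule or erythroid level as a covariate were also tried, and their results are not reported here. Coordinates are GRCm38 from GENCODE M21, and upstream sequences are from RefSeq GRCm38.p6. The LSK table was fitted on its own in the same way. The series holds CMP samples of NZBW/F1 mice only. Depth was 20001328 to 24761060 reads per sample, and counting intervals cover counting error only. The results of some named genes are not reported here.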

Additional observations from a re-analysis of the deposited data

Results flagged for a closer look

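For 7 named genes the F1-L samples did not overlap the F1-P samples in either table and lay below them in CMPs and above them in LSK. The difference between the 2 contrasts was not tested, and the tables were normalized separately. The part of mature cells in either contrast was not tested. Mmp9 had a log2 fold change of −4.60 in CMPs and 2.78 in LSK, with F1-L and F1-P means of 3.496 and 150.3 CPM in CMPs and 182 and 20.1 CPM in LSK. Retnlg had −4.45 and 3.00, Mmp8 had −4.21 and 3.12, and these genes belong to neutrophil granules. The receptor genes Lilr4b and Lilrb4a, between which reads may be split, had −4.00 and 2.09, and −3.21 and 1.90. Fn1 had −3.34 in CMPs and 3.59 in LSK. H2-Aa had −1.81 and 0.88, with F1-L and F1-P means of 5.56 and 24.5 CPM in CMPs and 89.8 and 48.2 CPM in LSK.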

How the results depend on the processing

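Col1a1 was the 1 gene called by limma with a pseudocount of 0.1, without a filter, with median of ratios scaling and with robust variance moderation, and by edgeR's quasi-likelihood test. Calls numbered 0 with a mean CPM of at least 5, with a replicate block and without F1-P replicates 2 and 3. They numbered 308 by edgeR's likelihood ratio test and 351 by DESeq2, and 2012 genes had an unadjusted p below 0.05 without a filter, of which 33.5% were higher in F1-L, against 46.4% of 1267 with it. The replicate block gave 914 genes at an unadjusted p below 0.05 and an adjusted p of 0.515 for Col1a1 in limma. Deviations from group means correlated at −0.454, −0.323 and 0.622 for replicate numbers 1, 2 and 3. Samples with unlike numbers reached 0.761 and −0.779. With 3 samples per group, these values cannot decide whether samples of the same number were paired. Leaving out 1 sample at a time gave 0 to 510 calls and 606 to 3335 genes at an unadjusted p below 0.05, and a median of 0.22 to 0.46 for erythro-megakaryocytic factors. The log2 fold change then ranged from −0.71 to 0.15 for Mpo, −0.57 to 0.44 for Prtn3, −0.42 to 0.11 for Cd163, −0.92 to 1.40 for Hspa1a, −0.29 to 1.63 for Hspa1b and −1.54 to 0.16 for Slc15a2. It turned to 0.15, 0.44 and 0.16 for Mpo, Prtn3 and Slc15a2 without F1-L replicate 2, to −0.92 and −0.29 for Hspa1a and Hspa1b without F1-L replicate 3, and to 0.04, 0.22, 0.11, −0.46 and −0.17 for Mpo, Prtn3, Cd163, Hspa1a and Hspa1b without F1-P replicate 3.

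Without both F1-P replicates 2 and 3, where the lone F1-P sample is assumed to vary like F1-L, 511 genes had an unadjusted p below 0.05. Median log2 fold changes were then 0.34 for sorted surface proteins, 0.95 for stem genes, 0.0097 for erythro-megakaryocytic factors, −0.46 for erythroid, 0.28 for myeloid factors, 0.44 for growth factor receptors, −0.52 for late granules, 0.33 for monocytes, 0.14 for macrophages, −0.079 for dendritic cells and class II, and 0.90 for basophils. They were −1.13 for B lineage, −0.47 for plasma cells, −0.22 for T and NK cells, −0.53 for chemokines, 0.53 for Ifi200, −0.16 for immediate early, −0.76 for NF-kB feedback, −0.23 for S phase, −0.31 for G2 and M phase and −0.37 for haem genes. The direction turned for Irf8 (0.065), Mpo (0.50), Prtn3 (0.70), Slc40a1 (−0.21), Cd163 (0.29), Cd34 (0.29), Ly6a (0.68), Fcgr2b (0.41), Fcgr3 (0.38), Ptprc (0.29) and Ighg1 (1.32). Of the alternative values of named genes, 1272 kept direction and side of the threshold, 113 passed it in addition, 7 (all of Col1a1) missed it and 21 turned. The cause of these changes was not tested. Precision was limited for genes of few reads. Depth was 20001328 to 21278928 reads in F1-L samples and 21355004 to 24761060 in F1-P samples, so every F1-P sample was deeper.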
